A study of Homo sapiens with 32 samples.

Results

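The genes described here are 10 members of the bone morphogenetic protein (BMP) pathway: the ligands BMP4 and BMP7, the receptors BMPR1A and BMPR2, and 6 genes known as transcriptional responses to BMP, which are ID1, ID2, ID3, SMAD6, SMAD7 and BAMBI. They were selected by symbol from the 18980 coding genes listed for each library. BMP4 headed the list because its low level with A485, and its unequal dose effect between compounds, were already known from these data, so its values are given without a test and the counts of tested genes below are of the other 9. The series holds 32 samples, of which the 20 RNA-seq libraries (total RNA) were used; its 11 ChIP-seq samples and 1 ChRO-seq sample were not analysed here. All libraries came from RH4, an established human alveolar rhabdomyosarcoma cell line that carries the PAX3-FOXO1 fusion, so every result is from 1 line. The treated conditions combined 4 compounds (A485, dCBP, IHK-44, JQAD) with 2 doses (100 nM, 1000 nM) and 2 times (2 h, 6 h). The control conditions were DMSO, the solvent, and NT, a label whose meaning is not given, each at both times. The study aimed these compounds at the acetyltransferases CBP and p300. A485 is known as a catalytic inhibitor of both, and dCBP and JQAD are known as degraders. Each condition had 1 library, so no condition has a replicate.

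BMP ligands are secreted dimers that bring together a type II receptor such as BMPR2 and a type I receptor such as BMPR1A. The type I receptor then phosphorylates SMAD1, SMAD5 and SMAD9, which bind SMAD4 and enter the nucleus. ID1, ID2 and ID3 are among the most direct targets; they encode helix-loop-helix proteins that lack a DNA-binding region and hold back the partners of myogenic factors such as MYOD1. SMAD6 and SMAD7 encode inhibitory SMADs, and BAMBI encodes a pseudoreceptor without a kinase. These 3 are induced by the pathway and dampen it, so their RNA is commonly read as feedback.

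Library totals over coding genes ran from 13466631 to 16799327 expected counts. Levels are given as CPM, read counts scaled to a common total over the coding rows, as the authors deposited them. Among the 10 genes the lowest count in any library was 24, for SMAD7, and the lowest for BMP4 was 28, so the lowest levels of both carry a large counting error. RH4 markers were present in the controls: MYOD1, a myogenic transcription factor, lay between 508 and 677 CPM in the 4 DMSO and NT libraries. EPCAM, CD3E and PTPRC, markers of epithelial cells, T cells and leukocytes, were at or near 0 in the same libraries. In bulk RNA, fewer cells that express a gene and less RNA per cell cannot be told apart.

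The series concerns CpG islands, so the 250 bases before the annotated start are shown for 6 members, with each CpG in capitals. ID1, ID3, SMAD6 and BAMBI are shown because they were low together with BMP4, and BMPR2 and BMPR1A because they stayed close to their control levels. Sequences are from RefSeq (GRCh38.p14), 5′ to 3′ on the gene's strand, and each window ends at the base before the outermost annotated start of its gene. The windows are chr20:31605039-31605288 (plus strand) for ID1, chr1:23559502-23559751 (minus) for ID3, chr15:66701986-66702235 (plus) for SMAD6, chr10:28677271-28677520 (plus) for BAMBI, chr2:202376077-202376326 (plus) for BMPR2 and chr10:86755513-86755762 (plus) for BMPR1A.
ID1: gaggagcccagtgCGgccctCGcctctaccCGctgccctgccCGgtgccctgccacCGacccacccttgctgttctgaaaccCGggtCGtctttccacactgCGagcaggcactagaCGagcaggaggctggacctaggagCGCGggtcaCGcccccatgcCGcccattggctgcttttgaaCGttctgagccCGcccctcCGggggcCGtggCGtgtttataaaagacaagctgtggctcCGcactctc
ID3: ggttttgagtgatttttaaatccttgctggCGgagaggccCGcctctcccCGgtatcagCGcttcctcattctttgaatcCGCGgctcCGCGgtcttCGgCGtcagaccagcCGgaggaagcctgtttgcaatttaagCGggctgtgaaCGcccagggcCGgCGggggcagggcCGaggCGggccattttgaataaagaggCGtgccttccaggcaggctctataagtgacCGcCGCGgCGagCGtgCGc
SMAD6: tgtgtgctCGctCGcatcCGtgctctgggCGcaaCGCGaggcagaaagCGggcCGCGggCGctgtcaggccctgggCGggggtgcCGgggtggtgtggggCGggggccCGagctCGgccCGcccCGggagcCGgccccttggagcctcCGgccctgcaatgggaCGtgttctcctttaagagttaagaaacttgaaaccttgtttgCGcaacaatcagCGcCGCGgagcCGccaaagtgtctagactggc
BAMBI: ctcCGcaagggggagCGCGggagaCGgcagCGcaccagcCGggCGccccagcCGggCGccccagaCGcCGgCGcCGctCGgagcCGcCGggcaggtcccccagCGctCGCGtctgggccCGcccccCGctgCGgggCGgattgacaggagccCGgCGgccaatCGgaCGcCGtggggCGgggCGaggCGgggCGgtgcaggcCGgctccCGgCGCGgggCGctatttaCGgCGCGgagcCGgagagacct
BMPR2: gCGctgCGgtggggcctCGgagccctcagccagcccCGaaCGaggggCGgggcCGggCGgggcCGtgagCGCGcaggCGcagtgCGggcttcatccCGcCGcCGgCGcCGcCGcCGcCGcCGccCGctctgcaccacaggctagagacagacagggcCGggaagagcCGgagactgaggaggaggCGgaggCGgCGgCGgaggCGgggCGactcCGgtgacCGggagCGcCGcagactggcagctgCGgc
BMPR1A: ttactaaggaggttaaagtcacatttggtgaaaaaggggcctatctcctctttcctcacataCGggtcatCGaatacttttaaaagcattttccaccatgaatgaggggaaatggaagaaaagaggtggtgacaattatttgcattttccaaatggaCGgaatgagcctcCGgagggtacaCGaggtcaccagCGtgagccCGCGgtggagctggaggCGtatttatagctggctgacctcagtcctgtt

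These windows differ widely in CpG content. BAMBI held 41 CpG and BMPR2 36, which put them at percentiles 97.8 and 93.8 of 21251 such windows from 15027 genes (median 17 CpG, quartiles 6 and 26). SMAD6 held 25, ID3 24 and ID1 19, and BMPR1A held 9. Over all the starts listed, 9 of the 10 members had 13 windows, 8 of them above the median CpG count. BMP4 had 3 windows with 25, 17 and 27 CpG, ID2 had 29, and the 3 SMAD7 windows held 13, 13 and 2. All 3 BMP4 windows, and the SMAD7 windows other than the outermost, lie inside the annotated span of their gene. Of the 2 highest counts, BAMBI is a gene that fell. BMPR2 is a receptor whose level stayed near the controls, just under them with IHK-44. A link between CpG count and response was not tested. GGCGCC, a GC-rich element known to bind SMAD1 and SMAD5 (a palindrome, so both strands are counted at once), was found in 3 of the 13 windows against 20.9% of all windows. GTCTG or its reverse complement CAGAC, the SMAD box, was found in 7 of the 13 against 37.3%. These are matches of letters in this window only.

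BMP4, the ligand, was low in all 12 libraries of A485, dCBP and IHK-44 and stayed at the control level with JQAD. In controls it was at 36.3 CPM (2 h) and 28.4 CPM (6 h) with DMSO, and at 37.1 and 26.4 CPM with NT. A485 at 1000 nM gave 2.52 CPM at 2 h and 1.99 CPM at 6 h, and at 100 nM 10.9 and 9.28 CPM. dCBP gave 3.62 and 2.07 CPM at 1000 nM and 4.71 and 3.47 CPM at 100 nM. All 8 values lay under the lowest control, and the 100 nM A485 libraries were the highest of them. IHK-44 gave 4.31 CPM (2 h) and 1.68 CPM (6 h) at 1000 nM, and 3.43 and 1.73 CPM at 100 nM. With JQAD the 4 values ran from 24.2 to 36.3 CPM, next to the controls. The 2 h libraries of the controls and of JQAD were all higher than their 6 h libraries, so each treated library is set against DMSO of its own time. By that measure BMP4 was at 7.0% of DMSO in both 1000 nM A485 libraries, at 30.1% and 32.7% at 100 nM, at 7.3% to 12.98% with dCBP, at 5.9% to 11.9% with IHK-44 and at 85.1% to 99.9% with JQAD.

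BMP7, the other ligand, had its lowest values at 6 h. In controls it was at 16.03 (2 h) and 12.6 CPM (6 h) with DMSO and at 18.1 and 12.1 CPM with NT. A485 gave 9.70 and 3.74 CPM at 1000 nM and 12.5 and 4.30 CPM at 100 nM. Its 2 h value at 100 nM was above the lowest control, NT at 6 h, so the A485 and control groups overlapped over both times. That value lay below both 2 h controls. dCBP gave 11.2 and 3.76 CPM at 1000 nM and 8.47 and 7.15 CPM at 100 nM, and IHK-44 gave 10.2 and 4.03 CPM at 1000 nM and 11.7 and 2.86 CPM at 100 nM. All 8 of these were below every control. With JQAD, BMP7 ran from 10.0 to 16.1 CPM, across the control range.

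The receptors stayed close to their control levels. BMPR1A, a type I receptor, ran from 82.4 to 85.9 CPM in the controls and from 66.7 to 100.5 CPM (median 76.1) in the 12 libraries of A485, dCBP and IHK-44. A485 at 6 h gave the highest values, 100.5 CPM at 1000 nM and 92.2 CPM at 100 nM. The dCBP libraries (66.7 to 78.0 CPM) all lay below the lowest control. BMPR2, the type II receptor, ran from 174.9 to 213.5 CPM in controls and from 129.5 to 221.1 CPM in those 12 libraries, and 100 nM dCBP at 6 h gave the lowest value. For BMPR2, the IHK-44 libraries (154.6 to 171.4 CPM) lay just under the controls.

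**Figure D1:**
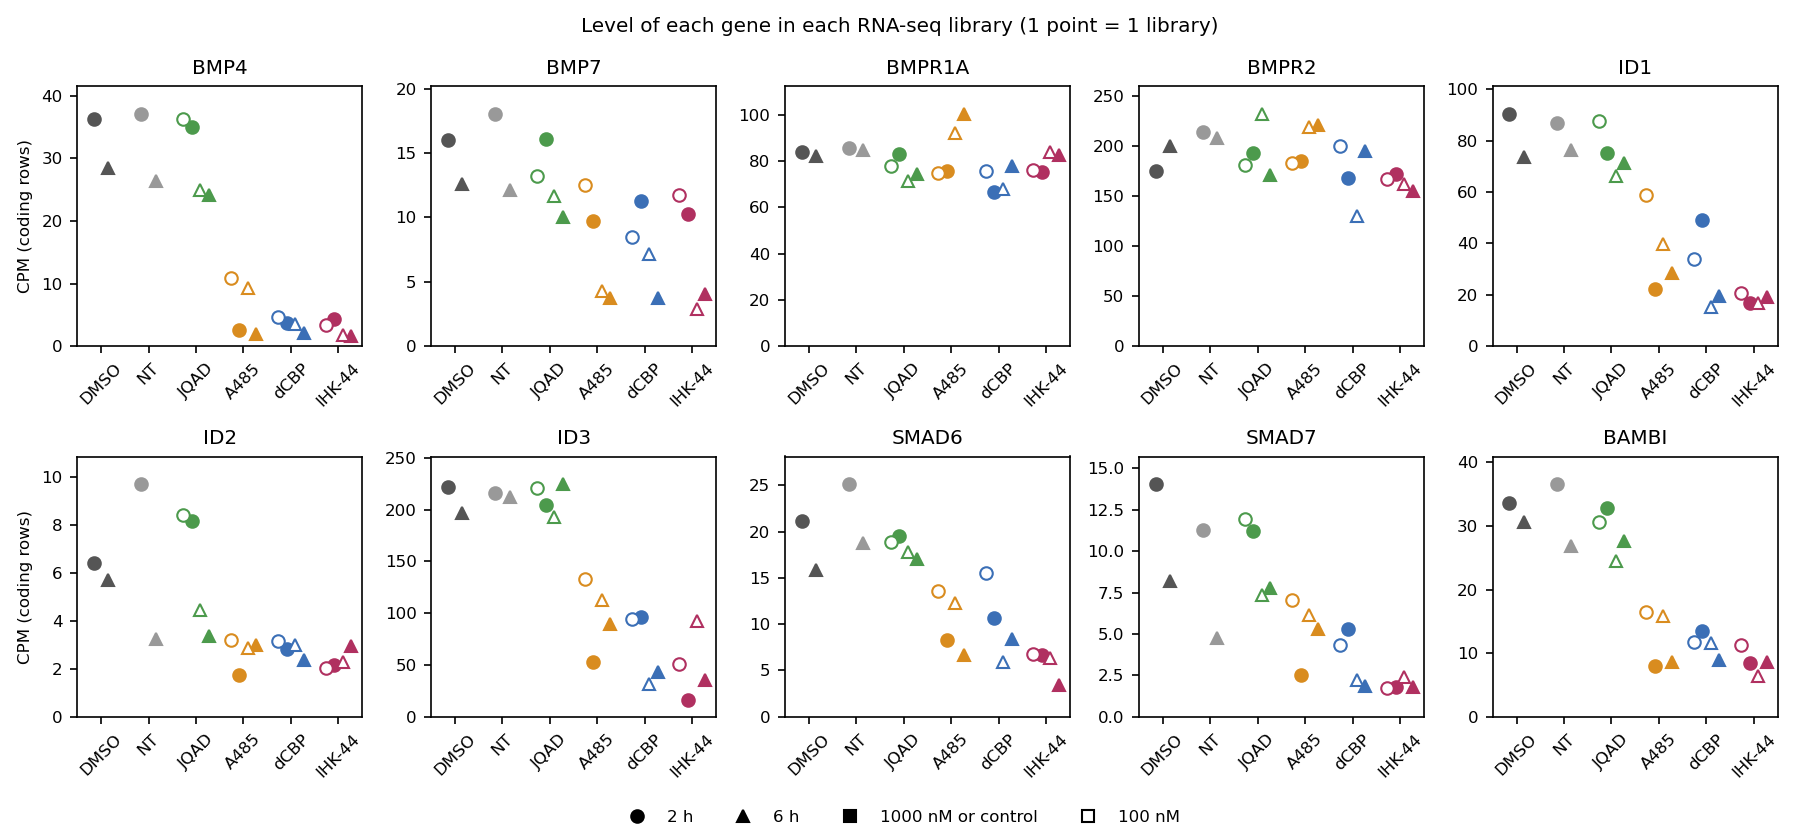
CPM of the 10 genes (1 panel a gene, linear axis from 0) in each of the 20 libraries, grouped by condition on the x axis; circles are 2 h, triangles 6 h, and open symbols 100 nM. BMP4, ID1, ID3 and BAMBI sit below every control with A485, dCBP and IHK-44, whereas JQAD overlaps the controls in all 10 panels.

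The ID genes were low where BMP4 was low. Except for ID3 with 1000 nM IHK-44 at 2 h, they kept more of their control level than BMP4 did. BMP4 was chosen for its low level with A485, so nothing is read from that difference. ID1 was at 90.4 and 73.5 CPM with DMSO (2 h, 6 h) and at 86.9 and 76.1 CPM with NT. A485 at 1000 nM gave 22.3 and 28.6 CPM, and at 100 nM 59.0 and 39.8 CPM. dCBP gave 49.2 and 19.6 CPM at 1000 nM and 34.0 and 15.2 CPM at 100 nM. With both doses of dCBP the 6 h library was below the 2 h library. IHK-44 held ID1 between 16.7 and 20.5 CPM in its 4 libraries, and JQAD between 66.3 and 87.5 CPM. Only the 12 libraries of A485, dCBP and IHK-44 were below the lowest JQAD and control values.

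ID3 had the highest level of the 10 genes per transcript length in DMSO, with 320.8 TPM at 2 h against 123.1 TPM for ID1, 26.6 TPM for BMP4 and 4.36 TPM for BMP7. In CPM it was at 221.5 and 197.1 with DMSO and at 215.9 and 212.5 with NT. A485 gave 52.8 and 89.3 CPM at 1000 nM and 133.1 and 112.4 CPM at 100 nM. dCBP gave 95.9 and 42.8 CPM at 1000 nM and 94.6 and 31.5 CPM at 100 nM. IHK-44 spread ID3 widely: 15.7 and 35.4 CPM at 1000 nM and 51.1 and 92.2 CPM at 100 nM. That spread runs along dose and time, with the 1000 nM library at 2 h the lowest of all 20 at 7.1% of DMSO. ID2 was weakly expressed. Its controls ran from 3.22 CPM (NT, 6 h) to 9.68 CPM (NT, 2 h), and the 12 libraries of A485, dCBP and IHK-44 from 1.75 to 3.18 CPM, so the gap between the sets was narrow. Its counts were between 27 and 155.

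Among the feedback genes, BAMBI was low in all 12 libraries of A485, dCBP and IHK-44. BAMBI was at 33.6 and 30.6 CPM with DMSO and at 36.5 and 26.9 CPM with NT. A485 gave 7.95 and 8.53 CPM at 1000 nM and 16.5 and 15.8 CPM at 100 nM. dCBP gave 13.5 and 8.92 CPM at 1000 nM and 11.8 and 11.6 CPM at 100 nM. IHK-44 gave 8.46 and 8.66 CPM at 1000 nM and 11.3 and 6.43 CPM at 100 nM. The highest of these 12 libraries, 16.5 CPM, lay under the lowest control (26.9 CPM) and the lowest JQAD library (24.4 CPM).

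SMAD6 ran from 15.9 to 25.1 CPM in controls. A485 gave 8.28 and 6.66 CPM at 1000 nM and 13.6 and 12.3 CPM at 100 nM, and dCBP 10.6 and 8.41 CPM at 1000 nM and 15.5 and 5.88 CPM at 100 nM. IHK-44 gave 6.61 and 3.43 CPM at 1000 nM and 6.79 and 6.37 CPM at 100 nM. The 100 nM dCBP library at 2 h lay just under the lowest control, 15.9 CPM. SMAD7 was at 14.04 and 8.21 CPM with DMSO and at 11.3 and 4.76 CPM with NT, lower at 6 h in both controls. IHK-44 held it between 1.71 and 2.38 CPM. A485 gave 2.52 and 5.29 CPM at 1000 nM and 7.03 and 6.14 CPM at 100 nM, of which 3 values overlapped the controls. dCBP gave 5.32 and 1.84 CPM at 1000 nM and 4.34 and 2.20 CPM at 100 nM, of which the first overlapped. The 2 h values among these, 7.03 CPM (100 nM A485) and 5.32 CPM (1000 nM dCBP), overlapped only the 6 h controls. They lay below both 2 h controls.

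Counted over the 9 genes other than BMP4, 5 had every A485 library below the 4 controls, 7 every dCBP library, 8 every IHK-44 library and 0 every JQAD library. The 4 controls span both times, so treated libraries were not set against their own time alone. Of the 12174 genes with a mean of at least 1 CPM, 7.45%, 11.1%, 11.5% and 1.47% did so for the same compounds. All 10 members passed that filter. ID1, ID2, ID3, SMAD6 and BAMBI were the 5 for A485.

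The compounds were then compared in 1 edgeR quasi-likelihood fit over the 20 libraries, with a level for each condition and a term for time. The 4 libraries of a compound stood in for replicates, so the spread includes the differences between doses and times. Against DMSO, 8 of the 9 tested members fell with dCBP at a Benjamini-Hochberg adjusted p under 0.05, whereas 11.8% of 13260 genes were called lower. With IHK-44, 7 of 9 fell (9.21% of genes). With A485, 1 of 9 fell (0.158% of genes) although 7 of 9 had an unadjusted p under 0.05 (19.1% of genes); since A485 is the contrast in which BMP4 was picked, nothing is read from this count. With JQAD and with NT, edgeR called 0 of 9 (0% of genes each), and 0 of 9 had an unadjusted p under 0.05 (1.08% and 0.784% of genes). No member rose. The median log2 change of the 9 members was -1.13 for A485, -1.20 for dCBP, -1.79 for IHK-44 and -0.11 for JQAD, beside 0.01, 0.05, 0.04 and -0.002 over all genes tested.

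By gene, all 3 ID genes fell with dCBP and with IHK-44, and the fitted values were lowest with IHK-44. ID1 fell by 2.26 on the log2 scale (SE 0.31, adjusted p = 0.00048 in edgeR) with IHK-44 and by 1.63 (SE 0.31, adjusted p = 0.00395) with dCBP. ID3 fell by 2.20 (SE 0.49) and 1.77 (SE 0.49) with the same compounds, and ID2 by 1.45 (SE 0.34) and 1.20 (SE 0.34). For A485 the values were -1.19 for ID1, -1.17 for ID3 and -1.22 for ID2, with adjusted p = 0.0862, 0.215 and 0.0925. JQAD gave -0.12 (SE 0.32) for ID1, 0.02 (SE 0.50) for ID3 and -0.04 (SE 0.33) for ID2.

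In the feedback group, BAMBI passed with dCBP and IHK-44. It also passed with A485, but that call was not kept in every fit that left out a library. The log2 change of BAMBI was -1.46 (SE 0.25, adjusted p = 0.0299 in edgeR) for A485, -1.60 for dCBP (SE 0.25) and -2.001 for IHK-44 (SE 0.25). SMAD7 fell by 2.58 (SE 0.37) with IHK-44 and by 1.82 (SE 0.36) with dCBP. SMAD6 fell by 1.79 (SE 0.28) and 1.00 (SE 0.27). The A485 values of SMAD7 and SMAD6, -1.08 and -0.91, did not pass (adjusted p = 0.126 and 0.109). BMP7 fell by 1.26 (SE 0.31) with IHK-44 and by 1.07 (SE 0.31) with dCBP, and its A485 value was -1.13 (SE 0.31, adjusted p = 0.0922 in edgeR). Among receptors, BMPR1A fell by 0.32 (SE 0.10, adjusted p = 0.0327 in edgeR) with dCBP. BMPR2 did not pass with any compound, its values lying between -0.31 and 0.05. For BMP4 itself the fitted values, without a test, were -2.45 for A485 (SE 0.41), -3.34 for dCBP (SE 0.44), -3.70 for IHK-44 (SE 0.44) and -0.12 for JQAD (SE 0.41).

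**Figure D2:**
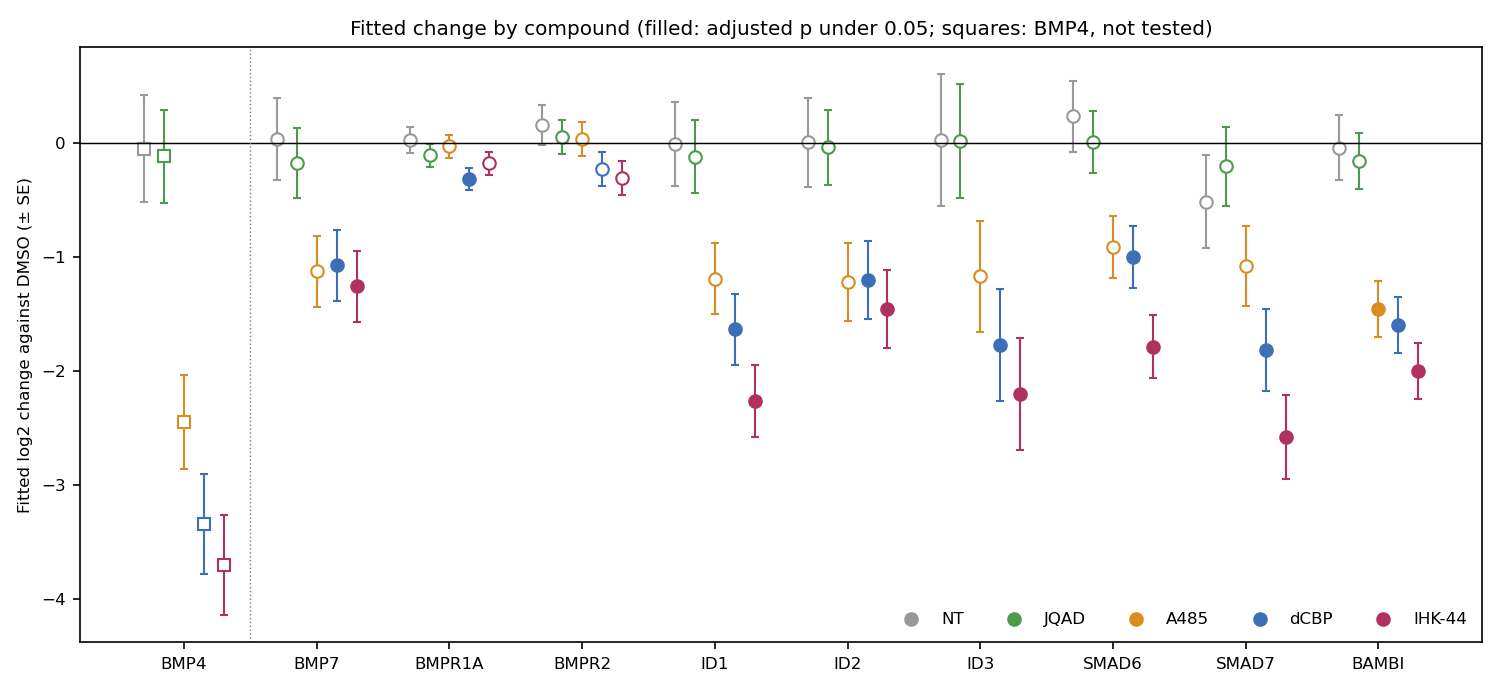
Fitted log2 change against DMSO (y axis, bars are ± SE) for each gene (x axis) and condition (colour); filled points passed an adjusted p of 0.05 in edgeR, and the squares are BMP4, which was not tested. The 6 response genes lie between -2.58 and -0.91 with A485, dCBP and IHK-44, and the receptors lie near 0. The BMP4 value of each of these compounds is lower still, but BMP4 was chosen for its low level with A485.

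These calls lean on the DMSO library at 6 h. Without it, 1 of 9 members (BAMBI) passed with dCBP, 4 of 9 with IHK-44 and 0 of 9 with A485. Without the DMSO library at 2 h, A485 had 0 of 9 members past the threshold, dCBP 4 and IHK-44 7. BAMBI with dCBP, and BAMBI, ID1, SMAD6 and SMAD7 with IHK-44, passed in all 20 fits that left out 1 library. The A485 count was 0 of 9 without either 1000 nM A485 library or the 1000 nM JQAD library at 2 h, and 3 of 9 without 100 nM A485 at 6 h. It was 5 of 9 with DMSO and NT pooled as one control, and 5 of 9 with DESeq2.

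JQAD was also taken as the reference, in the same fit, whose time term and spread still draw on the control libraries. There 5 of 9 members were lower with A485 (1.7% of genes), 7 of 9 with dCBP (16.4%) and 8 of 9 with IHK-44 (16.1%). Since BMP4 was picked for its level in these A485 libraries, nothing is read from the A485 count. The A485 members were BAMBI (-1.30, SE 0.21), ID2 (-1.18, SE 0.29), ID1 (-1.07, SE 0.27), BMP7 (-0.95, SE 0.26) and SMAD6 (-0.92, SE 0.23), and this count was 1 without either 1000 nM A485 library, and 1 or 2 without any single JQAD library. BMPR2 was lower with IHK-44 than with JQAD by a log2 change of -0.36 (SE 0.12, adjusted p = 0.0345 in edgeR).

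Among A485, dCBP and IHK-44 themselves, few differences passed. IHK-44 had lower SMAD7 than A485 by -1.50 on the log2 scale (SE 0.34, adjusted p = 0.0434 in edgeR), and the call held in 5 of 20 fits that left out a library. This was 1 of 9 members, against 0.377% of genes called lower. ID1 differed by -1.07 (SE 0.27, adjusted p = 0.0741) and SMAD6 by -0.87 (SE 0.24, adjusted p = 0.0958). Between dCBP and A485, edgeR called 0 of 9 (0.724% of genes either way), with 2 at an unadjusted p under 0.05 (21.4% of genes) and 1 called by DESeq2. Between dCBP and IHK-44 it called 0 of 9 (0% of genes), with 3 at an unadjusted p under 0.05 (6.66% of genes); ID1 was 0.63 (SE 0.28) and SMAD6 0.78 (SE 0.25) higher with dCBP.

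The dose of A485 gave calls for 2 response genes, and that of IHK-44 for 1. The fitted dose effect of A485 on BMP4 (1000 nM against 100 nM, without a test) was -2.23 (SE 0.20) on the log2 scale, and those of the other compounds were -0.56 with dCBP, 0.15 with IHK-44 and -0.04 with JQAD. In a fit over the 16 treated libraries, in which every pairing of compound and time formed a block, BAMBI (-1.04, SE 0.21, adjusted p = 0.0477 in edgeR) and ID1 (-1.01, SE 0.20, adjusted p = 0.0446) were lower at 1000 nM of A485. That is 2 of 9 members against 0.83% of 12895 genes, and 5 of 9 had an unadjusted p under 0.05 (10.7% of genes). BMP4 was picked with its unequal dose effect already known, so nothing is read from these A485 dose counts. ID3 (-0.90), SMAD7 (-0.87) and SMAD6 (-0.87) had A485 values of a like size that did not pass. Both calls were lost without any 1 of the A485 or JQAD libraries.

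For dCBP and JQAD, edgeR called 0 of 9 members by dose (0% of genes for each), and 0 of 9 had an unadjusted p under 0.05 (1.1% and 1.95% of genes). The dCBP dose values of the 9 members ran from -0.27 (ID2) to 0.43 (ID1). With IHK-44, 1 of 9 passed (0.109% of genes): ID3 was lower at 1000 nM by -1.56 (SE 0.21, adjusted p = 0.0157 in edgeR), at both 2 h (15.7 against 51.1 CPM) and 6 h (35.4 against 92.2 CPM). ID1 had an IHK-44 dose value of -0.06 (SE 0.21). The difference between compounds in the dose effect of these genes was not tested. The ID3 call was lost without any 1 of the 4 IHK-44 libraries or without 100 nM dCBP at 6 h.

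Single libraries show the order of the steps only as far as 2 h and 6 h allow. A difference from DMSO of the same time was counted when it reached 2-fold on the log2(CPM + 1) scale, with no test; the added 1 shrinks the ratios of weakly expressed genes. BMP4 passed that fold in all 12 libraries of A485, dCBP and IHK-44 and is left out of these counts. At 1000 nM of A485, 6 of the other 9 members were lower by that measure at 2 h (1.46% of 12174 genes) and 5 at 6 h (3.87%); at 100 nM they were 0 (0.0821%) and 1 (0.312%), BMP7. With dCBP the counts were 3 (1.59%) and 5 (6.19%) at 1000 nM, and 4 (1.27%) and 5 (6.97%) at 100 nM. With IHK-44 they were 6 (1.7%) and 6 (6.78%) at 1000 nM, and 6 (1.37%) and 7 (5.97%) at 100 nM. With JQAD 0 of 9 were lower in each library (0.0329% and 0.0575% of genes at 1000 nM, 0.0411% and 0.0246% at 100 nM). At 6 h the median gene had risen by 0.14 to 0.22 on this scale with 1000 nM A485 and both doses of dCBP and IHK-44; centred on the median gene, the counts over the 16 treated libraries summed to 58 against 54. With TPM, the 1000 nM A485 library at 6 h had 2 members lower and the 1000 nM dCBP library at 2 h had 6, where the median gene stood at 0.42 and -0.44; the 100 nM A485 libraries had 1 and 0 (2 h, 6 h), and coding rows held 27.9% to 53.9% of the TPM.

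The ligand and its response genes were already below DMSO together at 2 h. In the 1000 nM A485 library at 2 h, BMP4 was at 7.0% of DMSO and the 6 response genes at 18.0% (SMAD7) to 39.2% (SMAD6). At 100 nM they were at 30.1% and at 49.1% to 65.2%. In the 1000 nM dCBP library at 2 h, BMP4 was at 10.0% and the response genes at 37.9% to 54.4%. In the 100 nM dCBP library at 2 h, BMP4 was at 12.98% and the response genes at 30.9% (SMAD7) to 73.5% (SMAD6). With IHK-44 at 2 h, the response genes were at 7.1% to 33.5% at 1000 nM and at 12.2% to 33.7% at 100 nM. BMP4 retained a smaller share than each of the 6 response genes in all 12 libraries of these compounds, except that ID3 (7.1%) was below BMP4 (11.9%) with 1000 nM IHK-44 at 2 h. BMP4 was chosen for its low level with A485, already known from these data, so nothing is read from its lower share. No earlier time was used, so which fell first was not measured.

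**Figure D3:**
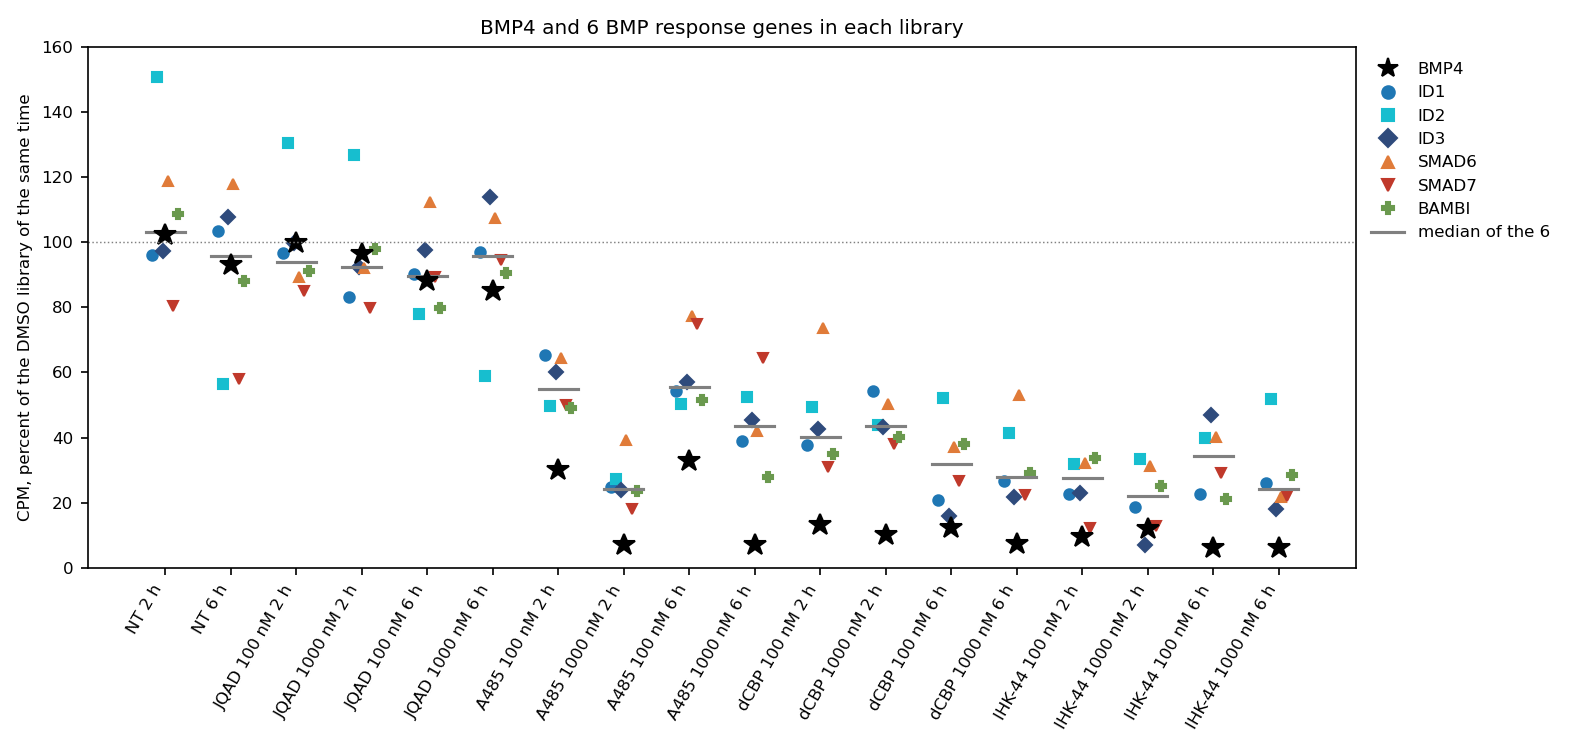
CPM as a percent of DMSO at the same time (y axis) for BMP4 (stars) and the 6 response genes (symbols; the grey bar is their median) in each library (x axis, 1 library a position). With 100 nM A485 the medians were 55.05% and 55.6% (2 h, 6 h), with 1000 nM A485 24.25% and 43.6%, and with IHK-44 between 22.0% and 34.4%, whereas JQAD stayed between 89.7% and 95.7%.

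The order of the 2 h and 6 h values of the response genes varied with gene, compound and dose. With 1000 nM A485, BMP4 stayed at 7.0% of DMSO, whereas SMAD7 stood at 18.0% at 2 h and 64.5% at 6 h, ID3 at 23.8% and 45.3%, and ID1 at 24.7% and 38.95%. BAMBI was at 23.7% and 27.9%. At 100 nM of A485, ID1 (65.2% and 54.2%) and ID3 (60.1% and 57.0%) were instead lower at 6 h. With 1000 nM dCBP, ID1 was at 54.4% and 26.7% and ID3 at 43.3% and 21.7%, whereas SMAD6 was at 50.4% and 52.9%. At 100 nM of dCBP, ID3 was at 42.7% and 15.98%. SMAD7 in the controls was itself lower at 6 h, and its 1000 nM A485 values rest on 39 and 85 counts. NT at 6 h had SMAD7 at 58.0% of DMSO and ID2 at 56.6%. The 6 h A485 values of SMAD7, 64.5% at 1000 nM and 74.8% at 100 nM, were thus not below NT of the same time. Those of ID2, 52.5% and 50.4%, lay just under it.

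The time dependence was tested as the interaction of time with each compound, with DMSO and NT sharing the time effect. For A485, edgeR called 0 of 9 members (0.00754% of genes), with 4 at an unadjusted p under 0.05 (8.56% of genes): SMAD7 (1.20, SE 0.45), ID2 (1.05, SE 0.46), BMPR1A (0.33, SE 0.12) and BMP7 (-1.05, SE 0.36). For dCBP it called 0 of 9 (7.56%), with 1 at an unadjusted p under 0.05 (23.8% of genes), ID1 (-1.12, SE 0.45, adjusted p = 0.143 in edgeR); ID3 had -1.37 (SE 0.67). For IHK-44 it called 1 of 9 (8.24%): BMP7 was lower at 6 h than at 2 h, beyond the controls' own change, by -1.33 (SE 0.37, adjusted p = 0.0356 in edgeR), a call kept in 10 of 20 fits that left out a library. For JQAD it called 0 of 9 (0%), and 0 of 9 had an unadjusted p under 0.05 (1.52% of genes). The unlike courses of ID1 and SMAD7 with A485 and dCBP did not pass the test of time in either compound, and the difference between the compounds in time course was not tested.

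Other ligands and receptors of the pathway were read from lists of known members. Of 12 further BMP ligands 7 were expressed enough to test. BMP2, a close relative of BMP4, passed the threshold with dCBP (log2 change -1.89, SE 0.33) and with IHK-44 (-2.18, SE 0.33), from 27.6 and 29.2 CPM with DMSO to between 3.39 and 10.8 CPM in the 8 libraries of these compounds. BMP5 fell by 1.82 (SE 0.60) with dCBP. Thus 2 of 7 fell with dCBP (11.8% of all genes) and 1 of 7 with IHK-44 (9.21% of all genes, so 1 of 7 is near the background), and the list's median log2 change was -0.25 and -0.26. Of 9 further receptors and co-receptors, 5 fell with each of dCBP and IHK-44, against the same 11.8% and 9.21% of all genes. They were the co-receptors RGMA (-1.96, SE 0.42, and -1.94, SE 0.42), RGMB (-1.61 and -1.49) and ENG (-0.42 and -0.41), the type II receptor ACVR2A (-1.07 and -1.04) and the type I receptor ACVR1 (-0.43 and -0.57). The medians of that list were -0.99 and -1.04.

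Of the antagonists that trap BMP or activin ligands some fell, again beside 11.8% (dCBP) and 9.21% (IHK-44) of all genes. Of 8 tested, 3 fell with dCBP: NOG (-2.97, SE 0.71), GREM1 (-1.01, SE 0.23) and FST (-0.98, SE 0.32). With IHK-44 3 fell as well: FST (-1.15, SE 0.32), GREM1 (-0.92, SE 0.23) and FSTL3 (-0.79, SE 0.22). Of the 8 genes that carry or curb the SMAD signal, the receptor SMADs SMAD1 (-1.10 with dCBP, -0.73 with IHK-44) and SMAD9 (-0.79 and -0.80) and the corepressor gene SKIL (-0.75 and -0.85) fell with both, and SMAD4 and SMAD5 did not pass. The list's medians were -0.16 and -0.10.

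Not all known BMP targets fell, and the counts here too stand against 11.8% of all genes with dCBP and 9.21% with IHK-44. Among 5 tested targets outside the 10 genes, 4 fell with dCBP: ATOH8 (-2.08, SE 0.67), RUNX2 (-1.76, SE 0.57), HEY1 (-1.41, SE 0.36) and MSX2 (-0.83, SE 0.16). With IHK-44 2 passed, HEY1 (-1.69) and MSX2 (-0.93). ATOH8 (-1.73, SE 0.66, adjusted p = 0.076 in edgeR) and RUNX2 (-1.59, SE 0.56, adjusted p = 0.0593) were also lower with IHK-44 but did not pass. MSX1, a homeobox gene, rose with both (11.8% and 7.74% of all genes were called higher), by 1.71 (SE 0.26) and 1.54 (SE 0.26), from 5.3 and 5.5 CPM with DMSO to between 14.1 and 28.4 CPM. Of the related TGF-beta genes, 7 of 12 fell and 1 rose with dCBP, and 5 of 12 fell with IHK-44. CCN2 (-1.43 and -1.54), PMEPA1 (-1.31 and -1.46), TGFBR2 (-0.92 and -0.86) and TGFB3 (-0.67 and -1.11) fell with both. With dCBP, TGFBI (-1.03) and TGFBR1 (-0.41) were also among those that fell, and LDLRAD4, under 1.5 CPM in every library, rose by 1.53. With IHK-44 SMAD3 fell by 0.63. The fitted values of these pathway lists average 2 h and 6 h. By the interaction test in edgeR, some genes were lower at 6 h beyond the controls' own change. With dCBP and IHK-44 they included BMP5 (-2.50 and -2.49), GREM1 (-1.01 and -1.21) and RUNX2 (-2.18 and -2.12). SMAD9 (-0.905) passed that test with dCBP. Of all genes, 7.56% (dCBP) and 8.24% (IHK-44) were called by it either way.

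Against DMSO, A485 and JQAD gave 0 calls in each of these 6 lists by edgeR. At an unadjusted p under 0.05, A485 had 2 of 7 ligands, 5 of 9 receptors, 1 of 8 antagonists, 0 of 8 SMAD genes, 3 of 5 targets and 5 of 12 TGF-beta genes, and JQAD had 0 in every list. Of all genes, 19.1% with A485 and 1.08% with JQAD had an unadjusted p under 0.05, so 1 of 8 and 0 of 8 lie below the A485 share. With JQAD as the reference, A485 calls in these lists included BMP2 (-1.44), FSTL3 (-0.69), MSX2 (-0.54) and MSX1 (0.84). There 1.7% of all genes were called lower. By the dose of A485 they included BMP2 (-1.335, SE 0.22) and HEY1 (-1.265, SE 0.24), beside 0.83% of all genes called lower. The lists were chosen with earlier results of these data known, so nothing is read from these A485 calls. Markers of the line moved along with the pathway. MYCN (-3.55 and -4.37), MYOD1 (-1.78 and -1.84) and PAX3 (-1.21 and -0.94) fell with dCBP and IHK-44, and MYOG (-1.73) fell with dCBP. Thus 4 of 6 line markers fell with dCBP (11.8% of all genes) and 3 of 6 with IHK-44 (9.21%), and their part in the BMP gene results was not tested. The summed level of the 6 line markers ran from 2275 to 2283 CPM with DMSO, 2077 to 2286 with NT, 2216 to 2607 with JQAD, 1192 to 2025 with A485, 984.9 to 1742 with dCBP and 924 to 1738 with IHK-44. The 6 markers of other cell types summed to 0.3309 to 0.7803 CPM with DMSO, 1.158 to 1.312 with NT, 0.5167 to 1.184 with JQAD, 0.97 to 1.619 with A485, 0.3696 to 1.693 with dCBP and 0.4167 to 1.504 with IHK-44, with EPCAM at 0 in every control.

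**Figure D4:**
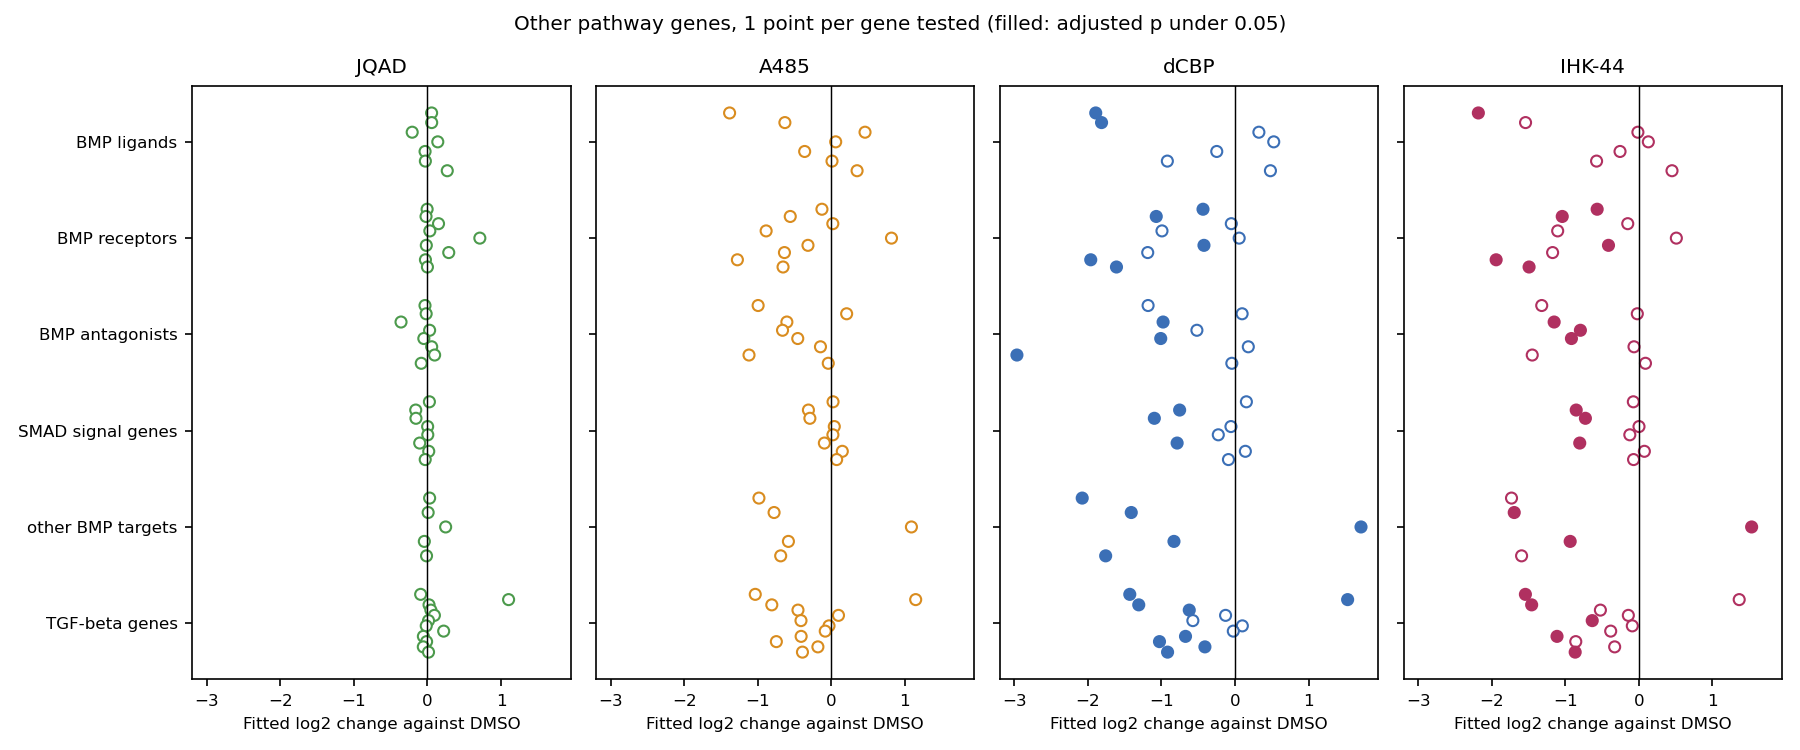
Fitted log2 change against DMSO (x axis) for each tested gene of 6 pathway lists (y axis, 1 point a gene) with JQAD, A485, dCBP and IHK-44; filled points passed an adjusted p of 0.05 in edgeR. Most filled points lie below 0, the exceptions being MSX1 with dCBP and IHK-44 and LDLRAD4 with dCBP, and JQAD and A485 have no filled point.

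Last, the genes whose level over the 20 libraries was most like BMP4's were found by Pearson's r of log2(CPM + 1) among 12174 genes. Those closest to it included BAMBI (r = 0.979), FLRT3 (0.977), DACT1 (0.977) and BMP2 (0.977). Of the other members, ID1 ranked 70 (r = 0.923), SMAD6 108 (0.905), SMAD7 201 (0.868), ID2 336, ID3 383 (0.821) and BMP7 835 (0.753), and the receptors were far below, BMPR2 at 0.387 and BMPR1A at 0.087. For ID1 the closest were GADD45A (0.967), GBX2 (0.963), HES1 (0.962), GADD45G (0.960) and SNAI1 (0.957). The libraries form a high set (DMSO, NT and JQAD) and a low set (the other 3 compounds) and share library totals and control conditions, so each r mostly measures that split and carries no p.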

How the data were processed

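The 10 genes, and the pathway lists set beside them, were chosen with earlier results of these data known. Per the labels' protocols, treated RH4 cells were trypsinized and RNA was taken with a column kit. Per the submitters' processing notes, STAR 2.5.3a, RSEM 1.3.3 and the build hg38 were used in the series (mm10 is also named, with no role given). The expected counts (estimated reads per gene) were deposited by the authors for 18980 coding rows, with 88.2% of the values whole. The CPM values, deposited by the authors, are scaled over those coding rows, and the TPM values, also deposited by the authors, over all the genes they quantified.

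Here the expected counts, rounded to whole numbers, were tested with edgeR 4.0.16 (quasi-likelihood, TMM, filterByExpr, Benjamini-Hochberg over all genes tested, threshold 0.05) in R 4.3.3. The compound fit had 20 libraries, a level for each of 6 conditions and a time term (13260 genes, 13 residual degrees of freedom). The dose fit had the 16 treated libraries with compound by time as blocks (12895 genes, 4 residual degrees of freedom), and the time fit an interaction of time with compound (13260 genes, 9 residual degrees of freedom). Since no condition has a replicate, p-values measure the spread between libraries of unlike dose or time. Ratios used log2(CPM + 1) with Python 3.11.15 in the 12174 genes with a mean of at least 1 CPM. All 10 members passed both filters. The fits were also run on simulated counts with known changes and a fixed spread. For the compound fit, the simulated libraries of a compound did not differ by dose or time, unlike these data. For the time fit, they did not differ by dose. The simulation therefore does not show how those fits handle such differences. Alternatives were DESeq2 1.42.0 and its size factors, no filter, limma 3.58.1 on log2(CPM + 1), NT or pooled controls and leaving out each library; for ratios, a pseudocount of 0.1, NT as control, TPM, a 1.5-fold threshold and centring. Named genes were the 10 members, every listed pathway gene that passed for a compound against DMSO, and the 5 genes most like BMP4 and the 5 most like ID1. Of the genes this rule names, 2 are not reported here. Promoter windows and gene positions came from RefSeq tables (GRCh38.p14); 9 of the 10 members matched a promoter window, all but BMP7.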

Additional observations from a re-analysis of the deposited data

Results flagged for a closer look

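The lowest SMAD6 level of the IHK-44 libraries, 3.43 CPM at 1000 nM and 6 h, stood apart from the other 3, which lay between 6.37 and 6.79 CPM. The highest SMAD7 level of the IHK-44 libraries, 2.38 CPM at 100 nM and 6 h, stood apart from the other 3, between 1.71 and 1.80 CPM. These were 2 of 40 groups of 4 libraries checked, and chance flags about 5% of such groups. The 4 libraries of a group also differ in dose and time.

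SMAD7 was lower with IHK-44 than with A485 by a log2 difference of -1.50, the difference between these compounds that passed edgeR's test among the 9 tested members. The change of BMP7 with IHK-44 differed between 6 h and 2 h by a log2 value of -1.33, by the interaction test. DESeq2 kept both directions, and neither call passed with limma on log2(CPM + 1).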

How the results depend on the processing

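Counts of passing members under other settings moved as follows. With A485 against DMSO, 5 passed with DESeq2 and 5 with DMSO and NT pooled, against 1; over all genes the A485 calls were 21 lower and 15 higher, against 20 and 6 with DESeq2's size factors, 155 and 230 with DESeq2, and 349 and 521 with pooled controls. DESeq2 gave 1 member for dCBP against A485 (0 in edgeR) and 3 for IHK-44 against A485 (1 in edgeR). With limma the counts were 0 for IHK-44 against A485, 0 for the dose of A485 and 0 for the time dependence of IHK-44. Without the filter on low counts, 1 member passed for the time dependence of dCBP. Leaving out 1 library gave 0 to 3 for A485, 1 to 8 for dCBP and 4 to 7 for IHK-44 against DMSO, 0 to 2 for dCBP and 0 to 4 for IHK-44 against A485, and 1 to 5 for A485, 6 to 9 for dCBP and 7 to 8 for IHK-44 against JQAD. By dose it gave 0 to 2 for A485 and 0 to 1 for IHK-44, and by time 0 to 2 for IHK-44 and 0 to 1 for dCBP. For the compounds against DMSO, a lone DMSO library was assumed to vary like the other groups. Signs turned only for the receptors with A485, near 0: BMPR1A (-0.029) was 0.034 with limma and -0.087 to 0.032 with a library left out, and BMPR2 (0.034) was -0.124 against NT, -0.047 with pooled controls and -0.073 to 0.153 with a library left out. By replicate number, no paired analysis was possible because the labels give the libraries none; the dose fit does block on compound and time. Depth limits the lowest values, such as SMAD7 at 24 counts.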
